A study of Mus musculus with 4 samples.

Results

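Chemokines are small secreted or membrane-anchored proteins that attract leukocytes along concentration gradients, and they act through G protein-coupled receptors on the responding cells. A separate group, the atypical receptors, binds chemokines without G protein signalling and clears or redistributes them. Epithelial and stromal cells are known to release chemokines after injury or infection, largely under control of NF-kB and interferon-regulated transcription factors. The genes described here are those of the deposited count table whose name begins with Ccl, Cxcl, Cx3cl or Xcl and a digit (42 ligands), or with Ccr, Cxcr, Cx3cr, Xcr or Ackr and a digit (23 receptors), 65 of 25413 genes in all.

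The samples were cells of EpH4, a mouse line derived from mammary epithelium, of wild-type (WT) genotype and grown as a 2D culture, in 2 groups. In the PM2.5 group (2 libraries) the cells had been exposed to PM2.5 (fine airborne particles), at a dose and for a time that the labels do not give. In the Control group (2 libraries) they were untreated. Nothing states that the replicates were separate cultures, so p-values measure the spread between these libraries, which may be technical.

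Total counts were 20232277 and 18548478 in the PM2.5 libraries and 19562930 and 26206329 in the Control libraries. The labelled epithelial identity was not borne out by its defining markers: no read was counted for Epcam, Krt18, Krt19, Krt5, Cldn4 or Esrp1, and 3 of 10 epithelial markers reached 1 CPM (counts scaled to library size) in any library. Summed, they gave 21.9 and 20.7 CPM in PM2.5 and 53.3 and 51.4 CPM in Control, nearly all of it Krt14. Krt14 was called lower in PM2.5 and Grhl2 higher, though Grhl2 entered the test through its PM2.5 libraries only. Of 10 fibroblast and mesenchymal markers 8 reached 1 CPM, and their summed level was 4445 and 4615 CPM in PM2.5 and 5688 and 5492 CPM in Control. That sum gives no common direction: 3 were called higher in PM2.5 (Dcn, Col3a1 and Col1a1) and 4 lower (Vim, S100a4, Pdgfrb and Col1a2). Among the tested markers of this list that was 37.5% higher and 50% lower, against 19.2% and 20.4% of all genes tested. Of 14 leukocyte markers 4 reached 1 CPM, while Itgam, Tyrobp, Cd3e and Cd3d were at 0 in every library and the general leukocyte marker Ptprc stayed at or below 0.158 CPM. Summed over the 14, the level was 20.8 and 21.7 CPM in PM2.5 and 10.2 and 10.9 CPM in Control. Of the 5 tested, Cd68, S100a8 and Cd3g were called higher in PM2.5, and Lyz2 and Cd79a were not called. That was 60% higher and 0% lower, against 19.2% and 20.4% of all genes tested. S100a8 and Cd3g entered the test through their PM2.5 libraries only, which ties their direction to the filter on low counts. Endothelial markers summed to 0.775 and 1.37 CPM in PM2.5 and 1.10 and 0.659 CPM in Control. The part of leukocyte-type transcripts in the differences reported here was not tested. In bulk RNA, fewer cells of a type and less RNA per cell cannot be told apart.

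Of the 65 genes, 19 reached 1 CPM in at least 1 library (15 ligands and 4 receptors), and 46 were near 0, below 1 CPM in all 4. Among the 46, 21 had no count in any library and 6 had 1 or 2 counts in total. A total of 0 in a library lies below 0.116 to 0.158 CPM, the level of 3 counts. The expression filter passed 19 genes to the test, which were 18 of the 19 expressed genes and Cxcl16 from the near-0 set. Ccl20, the attractant for CCR6-bearing cells, had 22 and 9 counts in PM2.5 and 8 and 3 in Control, reached 1.07 CPM in PM2.5 replicate 1 alone and was not tested. With no filter on low counts Ccl20 was tested and called higher in PM2.5. Adjusted p-values could be far smaller in that edgeR fit, for Cx3cl1 9.4e-156 against 5.1e-08 with the filter. A pass there is thus weak support for a gene of so few counts.

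In PM2.5 cells the membrane-anchored ligand Cx3cl1, the neutrophil attractant Cxcl3, the CXCR3 ligand Cxcl11 and the receptors Ackr3, Ccr4 and Xcr1 were higher. The neutrophil attractant Cxcl5, the most abundant chemokine transcript per length, was lower, as were the monocyte attractant Ccl7 and the T cell and monocyte attractant Ccl5. The other ligands of high level, Ccl2, Cxcl12, Cxcl1 and Cxcl10, were not called. By edgeR's quasi-likelihood test with Benjamini-Hochberg adjustment over all 12478 genes tested, 6 members were higher and 3 lower at an adjusted p below 0.05. Across all genes tested, 19.2% were called higher and 20.4% lower, together 39.6%, against 9 of 19 members, so the share of members called, 47.4%, was near the background. In the alternative fits used below, the share of all genes called was 39.2% with median-ratio factors, 39.3% with upper-quartile factors, 39.7% with library size only, 30.3% with no filter and 40.9% with a stricter filter. It was 28.1% with DESeq2, 39.4% with limma-voom, 35.1% and 34.3% on log2(RPKM + 0.1) and log2(RPKM + 1), 46.3% with the replicate block, 39.1% on total gene reads and 32.5% with a positional correction. Without PM2.5 replicate 1 or PM2.5 replicate 2 it was 28.8% or 25.0%, and without Control replicate 1 or Control replicate 2 it was 33.2% or 38.8%. The filter asked for 0.503 CPM in 2 libraries. Cxcl11 and Xcr1 passed it through both PM2.5 libraries with no Control library past that level, so their direction was tied to the filter. Cxcl3 had both PM2.5 libraries and 1 Control library past it. The Control group alone would not have passed Cxcl3, so its direction was tied to the filter in part. The median size of the log2 fold change was 0.43 over the 19 and 0.21 over all genes tested, and the median signed value was 0.07 and 0.01. Among the 19 tested members 8 had groups that overlapped, and none of those was called. The groups of the 9 called members did not overlap, nor did those of Ccl9 and Ccr10, which were not called. Over all genes tested, 71.0% had groups that did not overlap. Among called members such separation goes with the call and is no separate support.

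**Figure D1:**
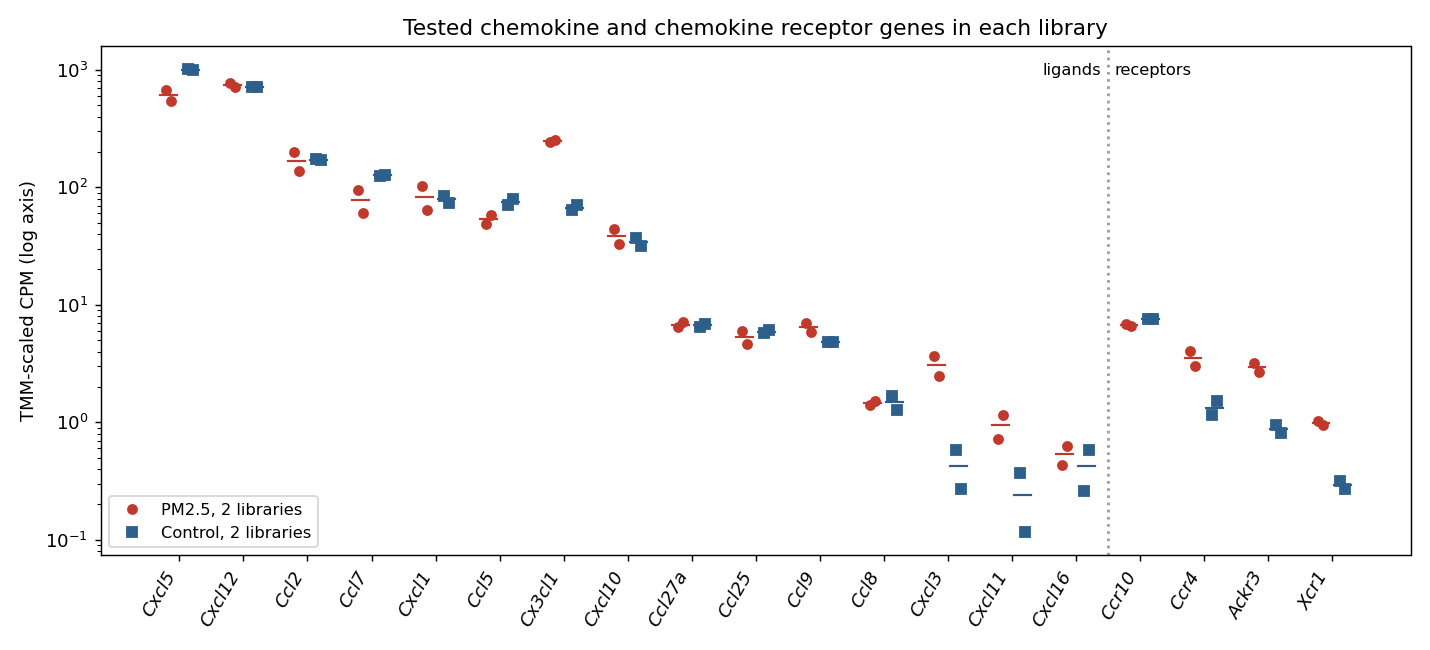
TMM-scaled CPM (log axis) of the 19 tested members in each library, ligands left of the dotted line and receptors right of it. Circles are the 2 PM2.5 libraries and squares the 2 Control libraries, lines are group means. Cx3cl1 sits at 241 and 252 CPM in PM2.5, above 63.9 and 70.5 CPM in Control. CPM is not scaled to gene length, so heights compare libraries within a gene and not genes with one another.

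The promoters of 4 ligands are shown: 2 that were higher in PM2.5 (Cx3cl1 and Cxcl3) and 2 that were not called (Cxcl1 and Cxcl10). Each run is RefSeq sequence of build GRCm38.p6, from 250 bases before to 50 bases after the annotated start, read 5′ to 3′ on the gene's strand. Capitals mark matches to the NF-kB consensus on either strand.
Cx3cl1 (chr8:94771930-94772229, plus strand): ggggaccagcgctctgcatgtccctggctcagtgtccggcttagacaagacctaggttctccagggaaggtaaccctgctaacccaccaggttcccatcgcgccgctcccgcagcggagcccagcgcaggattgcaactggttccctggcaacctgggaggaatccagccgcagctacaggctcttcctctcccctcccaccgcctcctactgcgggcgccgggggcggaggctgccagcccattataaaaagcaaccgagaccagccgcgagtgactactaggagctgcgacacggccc
Cxcl3 (chr5:90785851-90786150, plus strand): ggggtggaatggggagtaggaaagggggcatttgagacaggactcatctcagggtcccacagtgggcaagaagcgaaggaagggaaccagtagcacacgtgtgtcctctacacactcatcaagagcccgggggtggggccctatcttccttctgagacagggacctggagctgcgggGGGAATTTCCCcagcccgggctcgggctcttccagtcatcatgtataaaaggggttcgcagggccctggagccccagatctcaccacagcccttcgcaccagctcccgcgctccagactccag
Cxcl1 (chr5:90890995-90891294, plus strand): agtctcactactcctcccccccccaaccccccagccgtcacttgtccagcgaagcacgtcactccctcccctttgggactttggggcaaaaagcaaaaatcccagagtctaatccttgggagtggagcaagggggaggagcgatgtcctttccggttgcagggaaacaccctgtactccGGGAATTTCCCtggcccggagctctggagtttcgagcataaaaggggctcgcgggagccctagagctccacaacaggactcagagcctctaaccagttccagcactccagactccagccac
Cxcl10 (chr5:92348840-92349139, minus strand): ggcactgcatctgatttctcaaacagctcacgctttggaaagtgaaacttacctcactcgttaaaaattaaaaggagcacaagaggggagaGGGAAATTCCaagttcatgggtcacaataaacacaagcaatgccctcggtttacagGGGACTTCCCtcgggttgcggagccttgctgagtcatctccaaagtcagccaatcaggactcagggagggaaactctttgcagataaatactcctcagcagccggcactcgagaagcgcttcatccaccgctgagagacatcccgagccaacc

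The capitals in Cxcl3 and Cxcl1 spell the same letters, GGGAATTTCCC, which begin 73 bases before the start of Cxcl3 and 71 bases before that of Cxcl1 and hold 2 overlapping matches, 1 on each strand. Cxcl10 has 2 separate matches, at 159 and 103 bases before its start. No match lies in the window of Cx3cl1, which says only that these letters are not in these 300 bases. A window was given for 47 of the 65 members and 12 of the 19 tested. Cxcl5, Cxcl11, Cxcl16, Ccl2, Ccl5, Ccl7 and Ccr10 have none in the table used. The NF-kB consensus was found in 10 of 54 member windows (18.5%) and in 4.51% of all 32851 windows. The core of the aryl hydrocarbon response element, GCGTG, was in 22 of 54 (40.7%) and 32.4% of all, and the AP-1 element TGANTCA in 10 of 54 (18.5%) and 7.81% of all. Each motif was sought on both strands, and these shares are descriptions of letters with no test.

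Cx3cl1 encodes fractalkine, a chemokine held on a mucin stalk in the cell membrane, from which the metalloproteases ADAM10 and ADAM17 release it. Cx3cl1 (ENSMUSG00000031778, chromosome 8, 95498637 to 95509055, plus strand, GRCm39) had 4984 and 4785 counts in the PM2.5 libraries and 1216 and 1819 counts in the Control libraries. Scaled by library size and TMM factor, these were 241 and 252 CPM in PM2.5 and 63.9 and 70.5 CPM in Control. Both PM2.5 libraries lay far above both Control libraries, and the values within each group were close. Its log2 fold change was 1.87 (SE 0.07, edgeR adjusted p = 5.095e-08), the sixth smallest p of all genes tested, and stayed between 1.81 and 2.18 under 14 alternative settings on counts. The 49 other tested genes within 5 Mb had a median log2 fold change of -0.31, and set against that median the value for Cx3cl1 was 2.18. By RPKM, which scales to gene length, it stood at 54.7 and 57.4 in PM2.5 and 14.3 and 15.8 in Control. Its neighbours on chromosome 8 stayed near 0: Ccl17, which lies 28.0 kb away, had 9 and 5 counts in PM2.5 and 4 and 4 in Control, and Ccl22, which lies 20.3 kb away, had 0 and 2 counts in PM2.5 and 0 and 0 in Control. Its receptor gene Cx3cr1 had 2 and 0 counts in PM2.5 and 0 and 1 in Control.

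The ligands of CXCR2, which draw neutrophils, did not move together. Cxcl5 (ENSMUSG00000029371, chromosome 5, 90907219 to 90909483, plus strand) had 13877 and 10353 counts in PM2.5 and 19326 and 25656 counts in Control. At 672 and 545 CPM in PM2.5 against 1016 and 994 CPM in Control, both treated libraries were below both untreated ones. Its log2 fold change was -0.72 (SE 0.08, edgeR adjusted p = 1.139e-04), with a range of -0.88 to -0.58 over the alternatives. By mean RPKM it ranked 120 of all 25413 genes in PM2.5 and 87 in Control.

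Cxcl3 (ENSMUSG00000029379, chromosome 5, 90933962 to 90937459, plus strand), which starts 24.5 kb beyond the end of Cxcl5, had 76 and 47 counts in PM2.5 and 11 and 7 in Control. Its levels were 3.68 and 2.48 CPM in PM2.5 and 0.578 and 0.271 CPM in Control, and its log2 fold change was 2.91 (SE 0.40, edgeR adjusted p = 3.206e-04). The groups did not overlap, but Cxcl3 met the filter through its PM2.5 libraries, as given above. In PM2.5, Cxcl3 had 0.00849 and 0.00704 of the RPKM of Cxcl5, and in Control 0.000882 and 0.000423.

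Cxcl1 (chromosome 5, 91039100 to 91040974, plus strand) had 102 and 63.7 CPM in PM2.5 and 85.0 and 74.0 CPM in Control. The PM2.5 libraries lay on either side of the Control libraries, and its log2 fold change was 0.07 (SE 0.16, edgeR adjusted p = 0.7832). Leaving out PM2.5 replicate 1 gave -0.32 and leaving out PM2.5 replicate 2 gave 0.36, so no direction can be given for Cxcl1. Each of these fits had a single PM2.5 library and so held no spread between PM2.5 libraries. Cxcl2, the remaining close relative, lies 10.8 kb from Cxcl1 and had 2 and 2 counts in PM2.5 and 1 and 1 in Control. The ratio of Cxcl5 to Cxcl1 counts was 6.59 and 8.56 in PM2.5, against 11.9 and 13.4 in Control. Cxcl15 had 1 and 3 counts in PM2.5 and 0 in both Control libraries. The receptor Cxcr2 had 4 and 6 counts in PM2.5 and 10 and 6 in Control, and Cxcr1 had none in any library.

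**Figure D2:**
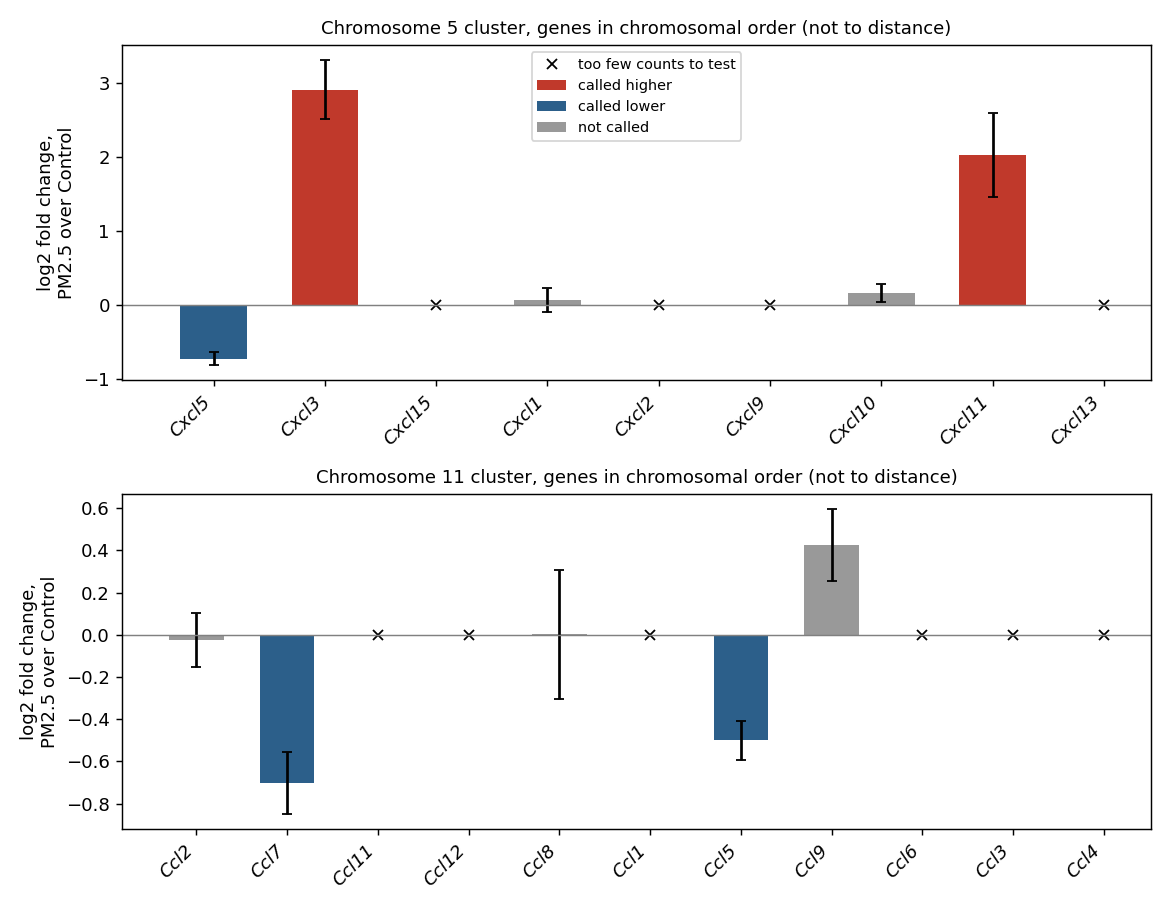
Log2 fold change, PM2.5 over Control, of members on chromosomes 5 and 11 in chromosomal order (spacing is not to distance). Bars show the fitted value with its SE, crosses mark genes with too few counts to test, and the chromosome 11 panel joins 2 stretches (Ccl2 to Ccl1 and Ccl5 to Ccl4). Cxcl5 is at -0.72 beside Cxcl3 at 2.91, and Ccl7 at -0.70 beside Ccl2 at -0.02.

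The CXCR3 ligands, which are interferon-inducible and attract activated T cells, were uneven. Cxcl10 was at 44.3 and 32.8 CPM in PM2.5 and 37.2 and 31.9 CPM in Control, and these ranges overlapped (log2 fold change 0.17, SE 0.13, edgeR adjusted p = 0.3234). Without PM2.5 replicate 2 its log2 fold change was 0.36 and without PM2.5 replicate 1 it was -0.07, so no direction can be given for Cxcl10. Cxcl11, which lies 10.7 kb from Cxcl10, had 15 and 22 counts in PM2.5 and 7 and 3 in Control, or 0.727 and 1.16 CPM in PM2.5 and 0.368 and 0.116 CPM in Control, with no overlap. It was called higher, log2 fold change 2.03 (SE 0.56, edgeR adjusted p = 0.01629). That call rests on few reads and ended with DESeq2 (adjusted p = 0.07654). It also ended without PM2.5 replicate 2 (log2 fold change 1.66) and without Control replicate 2 (log2 fold change 1.33). Cxcl9 had 2 and 0 counts in PM2.5 and 1 and 2 in Control. The receptor Cxcr3 had 1 and 2 counts in PM2.5 and none in Control. Cxcl10 and Cxcl11 both overlap Art3 on the opposite strand, and whether counting used strand is not given in the sources used here.

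Among the homeostatic CXC ligands, Cxcl12, which retains stem cells and leukocytes in their niches through CXCR4, was at 774 and 709 CPM in PM2.5 and 712 and 710 CPM in Control. Its log2 fold change was 0.06 (SE 0.06, edgeR adjusted p = 0.442), and the groups overlapped. Cxcl16, a transmembrane ligand of CXCR6, had 9 and 12 counts in PM2.5 and 5 and 15 in Control. Cxcl17 had at most 2 counts in a library, Cxcl13 had 1 count in all, and Cxcl14 had none. Cxcr4 was at 0 in all 4 libraries.

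Ackr3 encodes the atypical receptor that takes up Cxcl12 and Cxcl11. Ackr3 (ENSMUSG00000044337, chromosome 1, 90131702 to 90144473, plus strand) had 66 and 51 counts in PM2.5 and 18 and 21 in Control. In CPM this was 3.20 and 2.69 in PM2.5 and 0.946 and 0.814 in Control, with no overlap, and the log2 fold change was 1.75 (SE 0.29, edgeR adjusted p = 0.001034). Its range over the alternatives on counts was 1.61 to 1.87. On log2(RPKM + 0.1) it was 1.40 and on log2(RPKM + 1) it was 0.52. Ackr1 was at 0, Ackr2 had 1 count in all, and Ackr4 had 5 and 2 counts in PM2.5 and 1 and 6 in Control.

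Among the CC ligands on chromosome 11, Ccl2 and Ccl7 lie 8.3 kb apart and both attract monocytes through CCR2. Ccl7 (ENSMUSG00000035373, 81936538 to 81938351, plus strand) had 94.5 and 60.6 CPM in PM2.5 and 126 and 127 CPM in Control. Both treated libraries were below both controls, and the log2 fold change was -0.70 (SE 0.15, edgeR adjusted p = 0.003947). That call ended with DESeq2 (log2 fold change -0.71, adjusted p = 0.07888), and leaving out PM2.5 replicate 1 gave -1.06, leaving out PM2.5 replicate 2 -0.42. The 104 other tested genes within 5 Mb had a median log2 fold change of -0.17. Set against that median, Ccl7 was at -0.53 (edgeR adjusted p = 0.01908). Ccl2 (ENSMUSG00000035385, 81926397 to 81928279, plus strand) had 199.6 and 137 CPM in PM2.5 and 174 and 169 CPM in Control, which overlapped, and its log2 fold change was -0.02 (SE 0.13, edgeR adjusted p = 0.8994). Without PM2.5 replicate 1 it was -0.32 and without PM2.5 replicate 2 it was 0.22, so no direction can be given for Ccl2. The ratio of Ccl7 to Ccl2 counts was 0.473 and 0.441 in PM2.5, where each gene alone differed more between the libraries, and 0.725 and 0.748 in Control. Such a ratio shows unequal change and not which gene moved. Ccl8 was at 1.41 and 1.53 CPM in PM2.5 and 1.68 and 1.28 CPM in Control, and Ccl11 and Ccl12 were at 0.

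Ccl5, known as RANTES and a ligand of CCR1 and CCR3, fell. Ccl5 (ENSMUSG00000035042, chromosome 11, 83416604 to 83421344, minus strand) had 1005 and 1103 counts in PM2.5 and 1347 and 2062 in Control. These were 48.7 and 58.1 CPM in PM2.5 and 70.8 and 79.9 CPM in Control, and its log2 fold change was -0.50 (SE 0.09, edgeR adjusted p = 0.001767). It stayed below the threshold in the alternatives on counts, with values from -0.63 to -0.34. The 87 other tested genes within 5 Mb had a median log2 fold change of -0.16. Set against that median, Ccl5 was at -0.34 (edgeR adjusted p = 0.01606). Ccl9, a mouse CCR1 ligand 42.4 kb away, was at 7.02 and 5.85 CPM in PM2.5 and 4.78 and 4.81 CPM in Control. Its groups did not overlap, but its log2 fold change of 0.43 (SE 0.17) did not pass (edgeR adjusted p = 0.06925). Relative to the 85 tested genes around it, whose median was -0.16, it was 0.58 and was called (adjusted p = 0.02417). Ccl3, Ccl4 and Ccl6 had between 1 and 5 counts each over all 4 libraries. Of the receptors for these ligands that are reported here, Ccr1, Ccr2 and Ccr3 had no count in any library.

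The remaining CC ligands were low. Ccl27a, a skin-associated ligand of CCR10, was at 6.44 and 7.16 CPM in PM2.5 and 6.52 and 6.94 CPM in Control (log2 fold change 0.01, SE 0.15, edgeR adjusted p = 0.9608). It lies on chromosome 4 among 77 tested genes with a median log2 fold change of -0.50, and set against that median it was 0.51 and was called (adjusted p = 0.02415). Ccl27a overlaps Il11ra1 on the opposite strand and has near-identical copies in Ccl27b and Ccl27al, both at 0, so its counts are uncertain. Ccl25, a gut and thymus chemokine, was at 5.96 and 4.69 CPM in PM2.5 and 5.73 and 6.08 CPM in Control. It overlaps Elavl1 on the opposite strand, and the deposited total gene reads were 7.60 times its raw count. Ccl17 reached 0.436 CPM at most, Ccl28 had 4 counts in PM2.5 replicate 2 and 4 in Control replicate 2, and the Ccl21 copies, Ccl24, Ccl26 and Xcl1 were at 0. Ccl19 had 1 count in all, and Ccl1 had 3 counts in Control replicate 1 alone.

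Of 23 receptors, 4 reached 1 CPM. Ccr7, which guides cells to lymph nodes, had 7 and 9 counts in PM2.5 and 1 and 11 in Control. Cxcr5 had 7 and 0 counts in PM2.5 and 0 and 5 in Control, Ccr9 had 1 and 3 in PM2.5 and 1 and 0 in Control, Cxcr6 had 1 and 2 in PM2.5 and 1 and 3 in Control, and Ccr6 had 0 in both PM2.5 libraries and 3 and 1 in Control. Ccr8 and Ccr1l1 were at 0, and none of these low receptors was tested.

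Ccr10, the receptor for Ccl27a and Ccl28, was at 6.88 and 6.64 CPM in PM2.5 and 7.51 and 7.60 CPM in Control. It was not called (log2 fold change -0.16, SE 0.14, edgeR adjusted p = 0.3941), and it overlaps Cntnap1 on the opposite strand.

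Ccr4, which T helper and regulatory T cells use to sense Ccl17 and Ccl22, had 83 and 57 counts in PM2.5 and 22 and 39 in Control. Its levels were 4.02 and 3.002 CPM in PM2.5 and 1.16 and 1.51 CPM in Control, without overlap (log2 fold change 1.38, SE 0.28, edgeR adjusted p = 0.003209). The deposited total gene reads were 6.30 times the raw counts of Ccr4, at 415 and 361 in PM2.5 and 198 and 292 in Control, and on those the log2 fold change was 0.80 (adjusted p = 5.378e-04). Xcr1, the receptor of cross-presenting dendritic cells for Xcl1, had 21 and 18 counts in PM2.5 and 6 and 7 in Control, and its log2 fold change was 1.74 (SE 0.44, edgeR adjusted p = 0.01002). Counting error alone gives an SE of 0.46 for Xcr1, so the fitted SE understates its uncertainty. The call on Xcr1 ended with DESeq2 (adjusted p = 0.09029) and without PM2.5 replicate 1. Summed over the 23 receptors, RPKM was 5.89 and 5.42 in PM2.5 and 4.50 and 4.76 in Control. The ligands summed to 1020 and 822 RPKM in PM2.5 and 1157 and 1147 RPKM in Control. Of the receptors named above for the 8 most abundant ligands, only Ackr3 reached 1 CPM.

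**Figure D3:**
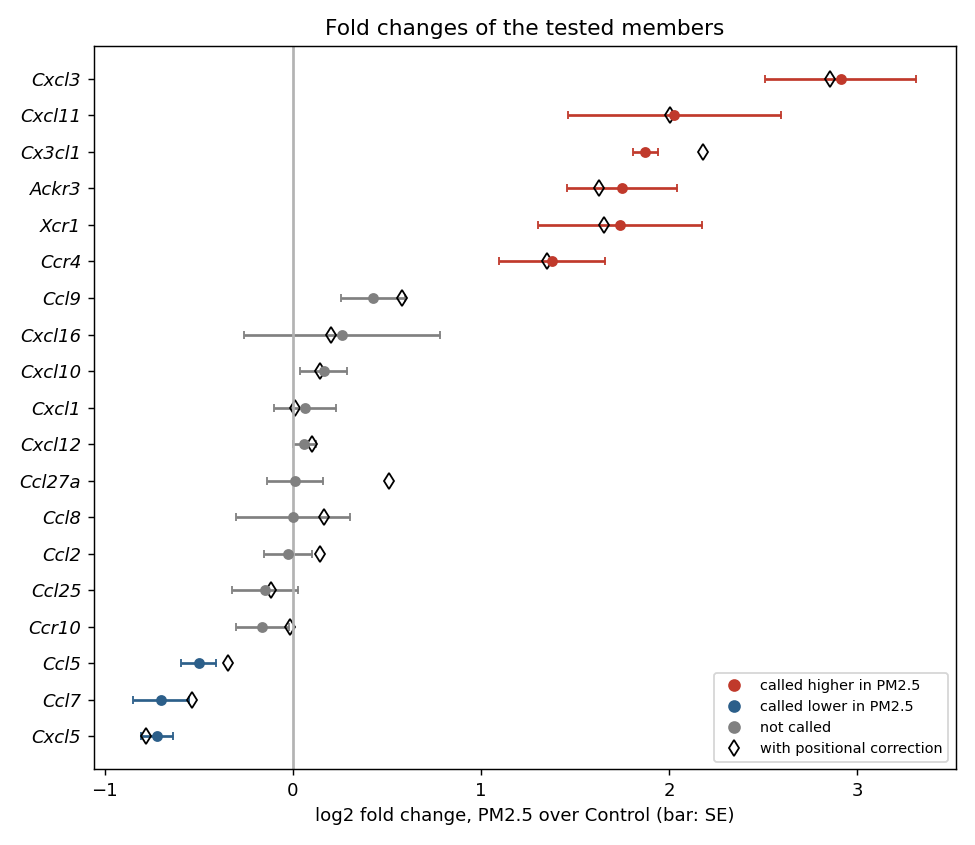
Log2 fold change, PM2.5 over Control, of the 19 tested members with the SE as bars (filled points), and after setting each gene against its neighbours within 5 Mb (open diamonds). The 6 genes called higher lie between 1.38 and 2.91 and the 3 called lower between -0.72 and -0.50. The correction moves Cx3cl1 from 1.87 to 2.18 and Ccl27a from 0.01 to 0.51.

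A few genes supplied most of the ligand transcript per length, and their shares differed between the groups. Cxcl5 took 35.3% and 35.7% of the summed ligand RPKM in PM2.5 and 46.3% and 45.9% in Control. Cx3cl1 took 5.37% and 6.98% in PM2.5 and 1.23% and 1.38% in Control. Ccl2 had shares of 20.3% and 17.4% in PM2.5 and 15.3% and 15.1% in Control. These shares move against one another by construction and were not tested. In CPM the ligands summed to 2045 ± 227 in PM2.5 and 2291 ± 19.6 in Control (SD, n = 2 each), a ratio of 0.892. PM2.5 replicate 1 held 1.60 times the Cxcl1, 1.45 times the Ccl2 and 1.56 times the Ccl7 of PM2.5 replicate 2, whereas for Cx3cl1 the same ratio was 0.958. Between Control replicate 1 and Control replicate 2 those ratios were 1.15, 1.02, 0.994 and 0.906.

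**Figure D4:**
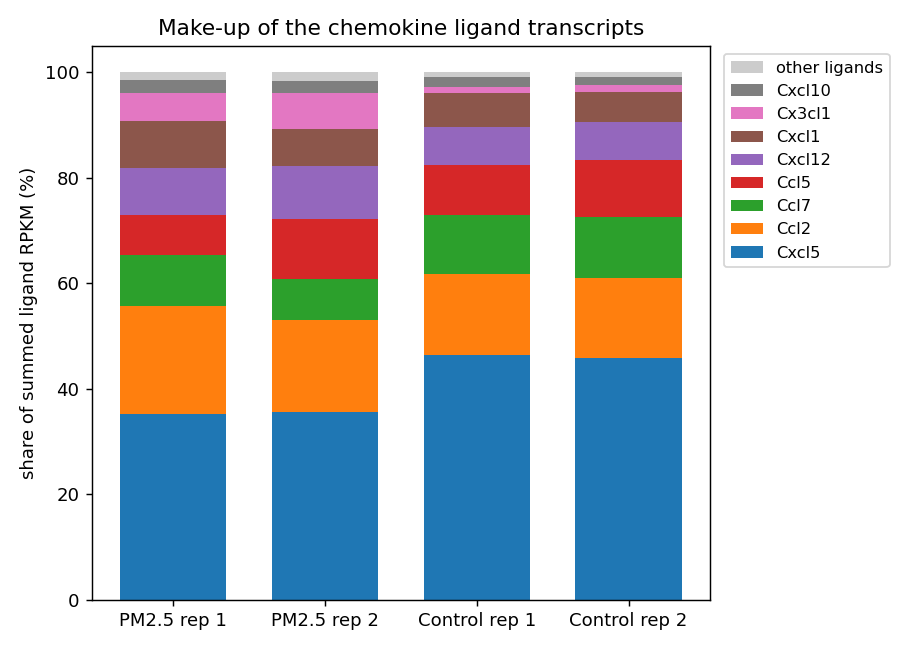
Share of the summed ligand RPKM (percent) taken by the 8 most abundant ligands and by all others, in each library. Cxcl5 is the widest band in all 4 bars, at 35.3% and 35.7% in PM2.5 and 46.3% and 45.9% in Control, and Cx3cl1 widens to 5.37% and 6.98% in PM2.5, against 1.23% and 1.38% in Control.

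Of 10 listed chemokine-related genes that the naming pattern does not take, 9 were in the table. Of these, 6 were tested, with 0 lower and 1 higher (16.7% called, against 39.6% of all genes tested). That was Cd74, a receptor subunit for the cytokine Mif, at 2.54 ± 0.385 CPM in PM2.5 and 1.49 ± 0.0283 CPM in Control (SD, n = 2 each; edgeR adjusted p = 0.04476), a call that ended with DESeq2, with limma-voom, with total gene reads and when any library was left out. The atypical receptor Ccrl2 was at 1.14 on the log2 scale (SE 0.45, edgeR adjusted p = 0.06592). Without Control replicate 2, in a fit with a single Control library, Ccrl2 was at 1.80. Ppbp, a CXCR2 ligand, was at 1.74 and 1.42 CPM in PM2.5 and 1.73 and 1.05 CPM in Control, and Cmklr1, a chemerin receptor, was at 0.92 on the log2 scale (SE 0.53, adjusted p = 0.199). Cmklr1 depended on single libraries: it was 1.45 without PM2.5 replicate 1 and 1.86 without Control replicate 2. It was 0.14 without PM2.5 replicate 2 and 0.45 without Control replicate 1.

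Genes that carry the signal of chemokine receptors were tested in 24 of 33 cases, with 8 higher and 1 lower. Their median log2 fold change was 0.08, against 0.01 over all genes. Called higher were 33.3% and lower 4.17%, together 37.5%, against 19.2%, 20.4% and 39.6% of all genes tested. This list and the 2 below were chosen with earlier results of these data known, so their counts are descriptions only. Arrb1, which encodes a beta-arrestin that desensitises receptors, rose to 26.3 ± 7.37 CPM in PM2.5, against 8.30 ± 1.85 CPM in Control (SD, n = 2 each; log2 fold change 1.64, SE 0.19, edgeR adjusted p = 1.204e-04). Plcb3, a phospholipase C, was higher at 0.40 (SE 0.07) and the G protein subunit Gnb1 lower at -0.28 (SE 0.05). With the positional correction these were 0.20 (adjusted p = 0.0428) for Plcb3 and -0.15 (adjusted p = 0.04722) for Gnb1. The haematopoietic GTPase gene Rac2 had 17 and 16 counts in PM2.5 and 0 and 2 in Control, a scaled ratio of 18.7 with an exact 95% counting interval of 4.77 to 160.5. It too passed the filter through its PM2.5 libraries only, so its direction was tied to the filter and its place among the 8 higher is no separate support. With the replicate number as a block 3 were lower, and without PM2.5 replicate 2 the number higher was 5.

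For genes that shed, cleave or present chemokines, 15 of 18 were tested, with 7 higher and 1 lower, and a median log2 fold change of 0.23. Called higher were 46.7% and lower 6.67%, together 53.3%, against 19.2%, 20.4% and 39.6% of all genes tested. Adam10, a sheddase of fractalkine, was higher in PM2.5 (253 ± 4.98 CPM) than in Control (207.5 ± 1.48 CPM), log2 fold change 0.28 (SE 0.05, edgeR adjusted p = 0.00201). The protease Mmp9 rose by 1.85 (SE 0.09) on the log2 scale, the heparan sulfate proteoglycan Sdc4 by 0.58 (SE 0.07), and Timp3, an inhibitor of ADAM17 and matrix metalloproteases, stood at -2.75 on the log2 scale (SE 0.07). Without PM2.5 replicate 2 the number higher was 4, and without Control replicate 2 the number lower was 3.

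Transcription factors and regulators that act on chemokine genes were tested in 24 of 25 cases, with 9 higher and 3 lower. Their median log2 fold change was 0.13. Called higher were 37.5% and lower 12.5%, together 50%, against 19.2%, 20.4% and 39.6% of all genes tested. The NF-kB inhibitors Tnfaip3 and Nfkbie were higher by 1.94 (SE 0.09) and 0.72 (SE 0.08) on the log2 scale. The AP-1 subunit Jun fell to 77.4 ± 0.815 CPM in PM2.5, against 141 ± 8.80 CPM in Control (log2 fold change -0.87, SE 0.06, edgeR adjusted p = 7.505e-06).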

How the data were processed

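The data are polyA RNA-seq libraries of EpH4 cells, 2 treated with PM2.5 and 2 untreated, made per the labels' protocols from 750 ng of total RNA with a stranded, ligation-based Illumina kit. The authors deposited unnormalized raw counts for each gene, and RPKM values, scaled to gene length and library size. A further count, total gene reads, was also deposited by the authors, and the file headers do not define how it differs from the raw count. The build is GRCm39, per the submitters' processing notes. Which aligner and counter were run, and whether strand was used, is not given in the sources used here.

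From the raw counts, edgeR 4.0.16 in R 4.3.3 kept 12478 genes with filterByExpr, scaled by TMM (factors 1.02 and 1.024 for PM2.5, 0.973 and 0.984 for Control) and ran the quasi-likelihood F test without pairing, at an adjusted p (Benjamini-Hochberg) below 0.05. CPM values are TMM scaled. Each SE is the size of the log2 fold change divided by the root of F. The test was tested on simulated data. Intervals and floors (3 counts) cover counting error only. Every tested member is named, with members of at least 3 counts and up to 4 genes with the smallest p per related list. A few genes under this rule are left out here. Members, lists, motifs and the positional correction were chosen with earlier results of these data known. The positional correction takes the median log2 fold change of other tested genes within 5 Mb (at least 10 genes, members left out) as an offset. Other alternatives were scaling by median-ratio or upper-quartile factors or by library size, and no filter or a stricter one (1 CPM in 2 libraries and 50 counts). DESeq2 1.42.0, limma 3.58.1 (voom on counts, trend on log2 RPKM), total gene reads, a replicate block and leaving out each library were also run. A fit without 1 library keeps a single library in that group, so its calls rest on the spread within the other group alone.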

Additional observations from a re-analysis of the deposited data

How the results depend on the processing

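Of 554 recomputed values for the 35 genes followed, 527 kept their side of the threshold (23 of them with the sign changed, all for genes that were not called), 15 lost the call, 11 gained one and 1, Cxcl1 without PM2.5 replicate 1 at -0.32, turned its direction with a call. With DESeq2 1581 genes were higher over all genes, against 2400. When a library was left out, the number higher over all genes ranged from 1502 to 2305 and the number lower from 1623 to 2538. Members higher ranged from 5 to 7 and members lower from 3 to 5, with 5 without PM2.5 replicate 1, where Cxcl1 and Ccl2 were added. Cxcl1 was at 0.36 without PM2.5 replicate 2. All 9 calls on members stayed under median-ratio, upper-quartile and library-size scaling, no filter, limma-voom, log2(RPKM + 0.1), total gene reads, the replicate block and the positional correction. DESeq2 lost Cxcl11, Xcr1 and Ccl7, log2(RPKM + 1) lost Cxcl11 and Xcr1, and the stricter filter did not test that pair. Ccl9 was added with library size only, log2(RPKM + 1) and the positional correction, Ccl27a with the last of these and Ccl20 with no filter. Leaving out each member in turn from the summed ligand level was not run.

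Of the genes named outside the pattern, 0 were higher with DESeq2 and with limma-voom, 2 with log2(RPKM + 0.1), and 0 to 2 with a library left out. In the signalling list the number lower was 2 with no filter, with total gene reads and with the positional correction, 3 with the replicate block, and 1 to 2 with a library left out, where the number higher was 5 to 7. In the shedding list the number lower was 2 with the positional correction and 1 to 3 with a library left out, where the number higher was 4 to 7. In the regulator list the number higher was 6 with DESeq2 and 12 with library size only and with the replicate block, against 9. The number lower in that list was 2 with the positional correction, against 3. Where not stated above, the cause of these shifts was not tested. The summed ligand ratio was 0.932 scaled to library size and 0.799 in RPKM. Same-numbered libraries had deviations that correlated at 0.164 over 12478 genes, and with only 2 pairs the number is not taken to pair them. With the replicate block members stayed at 6 higher and 3 lower. Calls on Cxcl11, Xcr1 and Cxcl3 are limited by depth, since each has under 20 counts in Control in total.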
